A study of Rattus norvegicus with 8 samples.

Results

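The genes described here are 33 rat genes that mark the cells of blood vessels, of which 24 mark endothelial cells and 9 mark mural cells. They were taken from a list by name, and their probes were found by RefSeq accession among 15154 genes with a named probe on the array. Of the 33 genes, 30 had a matched probe and 25 could be tested. Cells of the dorsal root ganglia, which hold the cell bodies of sensory neurons, were dissociated from Wistar rats aged 0 to 5 days, with both sexes pooled. They were kept 2 to 3 days in vitro and then treated for 5 days with a human protein, at 100 ng/ml, in 1 of 3 forms. Of the 8 arrays, 3 came from cultures given the double mutant P61S/R100E, 3 from cultures given the single mutant P61S and 2 from cultures given the wild type form. All 3 groups shared the serum-free medium with 5-fluoro-2'-deoxyuridine at 87.5 ng/ml and uridine at 37.5 ng/ml, which blocks cell division. Cultures that received none of the 3 forms were not analysed here. The labels do not say whether arrays of a group came from separate cultures or animals, so p-values measure only the spread between these arrays, which may be technical.

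Blood vessels are built from an inner layer of endothelial cells and an outer cover of mural cells, which are pericytes on capillaries and smooth muscle cells on larger vessels. Endothelial cells grow under vascular endothelial growth factors (VEGF), which act on the receptors Kdr, Flt1 and Flt4. They attract mural cells by releasing PDGF-B, which binds Pdgfrb on the pericyte, and the angiopoietins acting on Tek adjust the stability of the pair. The dorsal root ganglion is a densely vascularised tissue, and its dissociation can carry vessel cells into a culture beside neurons, glia and fibroblasts.

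Each array read 58717 spots that were not controls, the 75th percentile of the processed signal was 3267 to 5269, and 78.7% to 88.8% of spots were well above background. No spot was saturated. Levels are log2 signals relative to each array's 75th percentile, so a level of 0 equals that percentile, and 1 unit is 2-fold. Correlations between arrays over all tested probes were 0.983 or higher. On the main principal component, with 35.9% of the variance, wild type replicate 2 stood apart at 68.3, against -27.9 to 19.1 for the remaining arrays. The 8 arrays lay on 1 slide, and both wild type arrays lay in its column 4, so slide column and protein cannot be told apart in the comparisons with wild type. The mean slide column was 2.67 for P61S/R100E, 1.33 for P61S and 4 for wild type, so it also differed between the mutants. Within the groups, only replicate 2 of P61S and of P61S/R100E, both in column 2, lay in another column than the rest. A fit with slide column as a covariate therefore takes its slope from these replicates alone. Differences were tested in 1 limma fit of all 8 arrays, with p-values adjusted over 23585 probes, and no probe of the whole series passed an adjusted p of 0.05 in any of the 3 comparisons. Before adjustment, a p under 0.05 was reached by 946 probes for P61S/R100E against P61S, 1188 for P61S/R100E against wild type and 489 for P61S against wild type. Without wild type replicate 1, which leaves 1 wild type array, 1244 probes passed the adjusted threshold for P61S/R100E against wild type and 250 for P61S against wild type, none of them of a gene on the list. The 3 comparisons share arrays in pairs, so their values for a gene are not independent.

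Of the 33 listed genes, 18 were well above background on all 8 arrays, and no listed gene passed the test between the 3 groups. Several of these genes are also carried by other cells, so their signal does not by itself show endothelial or mural cells. Of the 25 tested genes, 0 passed an adjusted p of 0.05 in limma in each comparison, where 0.0% of all tested genes did. At an unadjusted p under 0.05 there were also 0 of 25, against 4.68% of 12148 tested genes for P61S/R100E against P61S, 5.19% for P61S/R100E against wild type and 1.72% for P61S against wild type. The median log2 change over the 25 genes was -0.09 for P61S/R100E minus P61S, beside -0.01 over all tested genes. It was -0.10 for P61S/R100E minus wild type, beside -0.03, and -0.05 for P61S minus wild type, beside -0.02. Genes with a fitted value above 0 numbered 7 of 25 for P61S/R100E minus P61S, 7 of 25 for P61S/R100E minus wild type and 10 of 25 for P61S minus wild type. Over all 12148 tested genes, 5645, 5212 and 5199 lay above 0 in the same order. Groups without overlap were found for 0 of 25 genes upward and 0 downward in P61S/R100E against P61S, beside 7.21% and 8.48% of all tested genes. For P61S/R100E against wild type there were 0 upward, beside 7.46%, and 1 downward, beside 8.73%. In such bulk cultures, a difference in the number of vessel cells and one in the RNA per vessel cell could not be told apart.

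**Figure D1:**
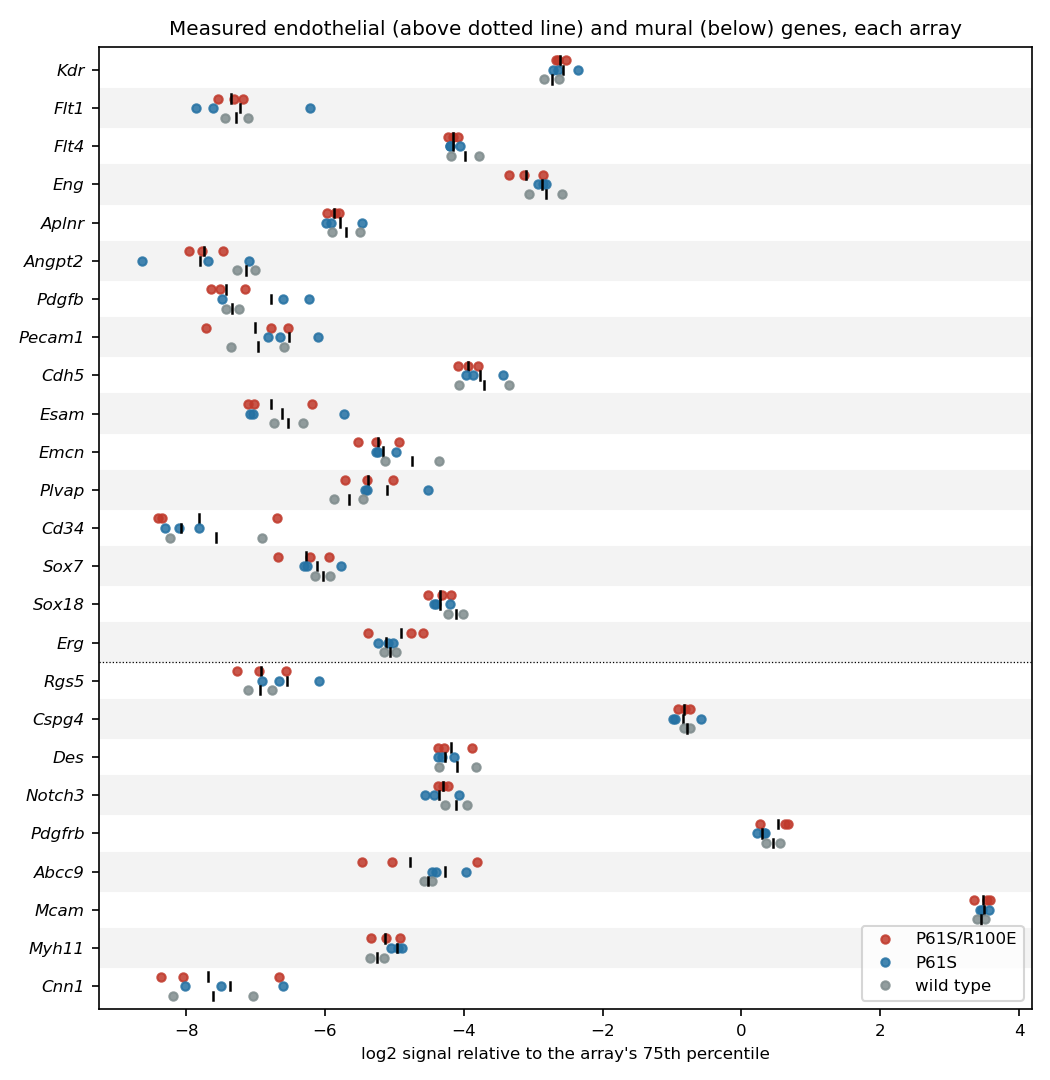
Level of each tested endothelial gene (above the dotted line) and mural gene (below it) on each of the 8 arrays, with the log2 level (0 is the 75th percentile of the array) on the x axis; points are arrays and black ticks are group means. For most genes the 3 groups cover the same range, and rows low on the scale, such as Cd34 and Cnn1, spread more widely than Mcam or Kdr.

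The plot of levels on each array shows the 3 groups beside each other for every tested gene. Part of the markers that name the list were measured in every culture. Of 16 tested endothelial genes, 10 were well above background on all 8 arrays, as were 8 of 9 mural genes. Among them were Cdh5 (VE-cadherin), the adherens junction protein of endothelial cells, and Kdr, the main signalling receptor for VEGF-A. Other markers that define endothelial cells were not measured at that level. Tek, the angiopoietin receptor, was well above background on 0 of 8 arrays, its partner Tie1 on 1 (P61S replicate 2), and the adhesion protein Icam2 and the transcription factor Sox17 on 0. Nos3, which makes nitric oxide in endothelium, was well above background on 4 of 8 arrays, and on all arrays of no group. Vwf, the blood-clotting glycoprotein of endothelial granules, Robo4 and Egfl7 had no matched probe. Of 36 further endothelial markers, 25 were tested and 6 had a matched probe that was not well above background on every array of any group, among them Cldn5, the tight junction protein of the blood-nerve and blood-brain barriers.

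Of the receptors, 5 of 8 were tested. Kdr stood at -2.53, -2.66 and -2.64 with P61S/R100E, at -2.71, -2.36 and -2.64 with P61S, and at -2.62 and -2.85 with wild type. The 3 groups overlapped, and P61S replicate 2 held the highest value. The log2 change of Kdr was -0.04 for P61S/R100E minus P61S (SE 0.12, 95% interval -0.33 to 0.25, unadjusted p = 0.749, limma adjusted p = 0.999). It was 0.13 for P61S/R100E minus wild type (SE 0.13, 95% interval -0.19 to 0.45, unadjusted p = 0.377, limma adjusted p = 0.804). Both intervals exclude a 1.5-fold difference in either direction, since 1.5-fold is a log2 change of 0.58.

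Flt1, a VEGF receptor that also acts as a decoy for the ligand, was close to background. Its levels were -7.54, -7.18 and -7.32 with P61S/R100E, -7.62, -6.21 and -7.86 with P61S, and -7.44 and -7.11 with wild type. P61S replicate 2 was more than 1 log2 unit above the other P61S arrays, and 1 P61S array was not well above background. The change of Flt1 was -0.12 for P61S/R100E minus P61S, with a 95% interval of -1.09 to 0.85 (SE 0.41, unadjusted p = 0.781, limma adjusted p = 0.999). At this precision a 2-fold lower level of Flt1 lies inside the interval.

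Eng (endoglin), a co-receptor for TGF-beta and BMP ligands on endothelial cells, read -2.85, -3.13 and -3.34 with P61S/R100E, -2.86, -2.82 and -2.92 with P61S, and -3.05 and -2.59 with wild type. Of the 3 P61S/R100E arrays, 2 lay below every other array, and the third overlapped the P61S and wild type arrays. The change was -0.24 for P61S/R100E minus P61S (SE 0.16, 95% interval -0.63 to 0.15, unadjusted p = 0.190, limma adjusted p = 0.999). It was -0.29 for P61S/R100E minus wild type (SE 0.18, 95% interval -0.72 to 0.15, unadjusted p = 0.162, limma adjusted p = 0.746). Flt4, the VEGF-C receptor best known from lymphatic endothelium, ranged from -4.23 to -3.79 over the 8 arrays, and Aplnr, the apelin receptor, ranged from -5.98 to -5.47. Neither had an unadjusted p under 0.05 in limma, and on their brightest probes the changes lay between -0.17 and -0.01 in the 3 comparisons.

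Of the secreted factors, Pdgfb and Angpt2 were tested, and both lay near background. Pdgfb encodes the ligand by which endothelial cells attract pericytes. It read -7.64, -7.51 and -7.15 with P61S/R100E, -6.60, -6.23 and -7.49 with P61S, and -7.42 and -7.24 with wild type. The first 2 P61S arrays were the highest of the 8, while the third, not well above background, fell among the P61S/R100E arrays. The change of -0.66 for P61S/R100E minus P61S had the smallest p of any listed gene in that comparison (SE 0.31, 95% interval -1.41 to 0.09, unadjusted p = 0.075, limma adjusted p = 0.999). For P61S minus wild type it was 0.56 (SE 0.35, 95% interval -0.27 to 1.39, unadjusted p = 0.156, limma adjusted p = 0.999).

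Angpt2, the angiopoietin that endothelial cells release when vessels are remodelled, read -7.77, -7.47 and -7.96 with P61S/R100E, -7.69, -7.09 and -8.64 with P61S, and -7.27 and -7.01 with wild type. It was well above background on 2 of 3 P61S/R100E arrays, 2 of 3 P61S arrays and both wild type arrays. It therefore entered the test only through wild type, where its mean was highest. The P61S/R100E and wild type arrays did not overlap, which held for 8.73% of all tested genes in that direction. The change for P61S/R100E minus wild type was -0.60 (SE 0.41, 95% interval -1.58 to 0.38, unadjusted p = 0.193, limma adjusted p = 0.746). For P61S minus wild type it was -0.67, with overlapping groups (SE 0.41, 95% interval -1.65 to 0.31, unadjusted p = 0.152, limma adjusted p = 0.999).

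Surface and junction proteins gave 6 tested genes of 7. Pecam1, the adhesion protein CD31 of endothelial contacts, read -6.52, -6.77 and -7.71 with P61S/R100E, -6.65, -6.11 and -6.81 with P61S, and -6.58 and -7.36 with wild type. It was well above background on 2 of 3 P61S/R100E arrays, 3 of 3 P61S arrays and 1 of 2 wild type arrays, and the groups overlapped. It therefore entered the test only through P61S, where its mean was highest. The change was -0.48 for P61S/R100E minus P61S (SE 0.37, 95% interval -1.35 to 0.39, unadjusted p = 0.233, limma adjusted p = 0.999). Cdh5 read -3.80, -4.08 and -3.94 with P61S/R100E, -3.97, -3.44 and -3.87 with P61S, and -4.07 and -3.34 with wild type. Its highest values were on wild type replicate 2 and P61S replicate 2, while the other 6 arrays lay between -4.08 and -3.80. The change was -0.18 for P61S/R100E minus P61S (SE 0.22, 95% interval -0.71 to 0.35, unadjusted p = 0.441, limma adjusted p = 0.999).

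Emcn (endomucin), a sialomucin of capillary and venous endothelium, read -4.93, -5.52 and -5.27 with P61S/R100E, -5.23, -4.98 and -5.27 with P61S, and -5.14 and -4.35 with wild type. Wild type replicate 2 alone stood above the rest, and wild type replicate 1 lay inside the range of both mutants. The change of -0.49 for P61S/R100E minus wild type had the smallest p of the listed genes in that comparison (SE 0.26, 95% interval -1.12 to 0.13, unadjusted p = 0.103, limma adjusted p = 0.746). Plvap, the protein of the diaphragms across fenestrae and caveolae, read -5.71, -5.02 and -5.40 with P61S/R100E, -5.43, -4.51 and -5.40 with P61S, and -5.45 and -5.86 with wild type. The P61S arrays all lay above the wild type arrays, though the nearest pair stood at -5.43 and -5.45. The change for P61S minus wild type was 0.55 (SE 0.33, 95% interval -0.24 to 1.33, unadjusted p = 0.142, limma adjusted p = 0.999). Esam, a tight junction adhesion protein, ranged from -7.11 to -5.72 over the 8 arrays, and Cd34, a sialomucin also carried by progenitor cells and fibroblasts, ranged from -8.40 to -6.69. Cd34 was well above background on only 4 of 8 arrays, and the 95% interval of its change for P61S/R100E minus P61S ran from -0.99 to 1.52.

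Of 4 endothelial transcription factors, 3 were tested. Sox18, which takes part in vessel and lymphatic development, read -4.19, -4.52 and -4.32 with P61S/R100E, -4.39, -4.20 and -4.43 with P61S, and -4.22 and -4.01 with wild type. The groups overlapped, and P61S/R100E and P61S had nearly the same mean, -4.34 each. Its change was -0.22 for P61S/R100E minus wild type (SE 0.14, 95% interval -0.55 to 0.10, unadjusted p = 0.147, limma adjusted p = 0.746) and -0.22 for P61S minus wild type. Erg, an ETS family factor that maintains endothelial identity, had a pair of tested probes, and they differed in the sign of the change. The brighter probe read -5.38, -4.58 and -4.76 with P61S/R100E, -5.23, -5.02 and -5.09 with P61S, and -5.16 and -4.97 with wild type, a change of 0.21 for P61S/R100E minus P61S (SE 0.20, 95% interval -0.28 to 0.69, unadjusted p = 0.344, limma adjusted p = 0.999). On the dimmer Erg probe the change for P61S/R100E minus P61S was -0.16 (SE 0.19, limma adjusted p = 0.999). Sox7, a relative of Sox18, ranged from -6.67 to -5.76, and its change was -0.17 for P61S/R100E minus P61S.

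All 9 mural genes were tested. Pdgfrb, the receptor for PDGF-B on pericytes, is also carried by fibroblasts, which these cultures hold. It read 0.63, 0.27 and 0.67 with P61S/R100E, 0.34, 0.22 and 0.33 with P61S, and 0.56 and 0.36 with wild type. P61S/R100E replicates 1 and 3 were the highest of the 8 arrays, and replicate 2 lay among the P61S arrays. The change was 0.22 for P61S/R100E minus P61S (SE 0.13, 95% interval -0.08 to 0.53, unadjusted p = 0.124, limma adjusted p = 0.999). P61S lay below wild type without overlap, a separation found downward in 9.31% of all tested genes, and the change was -0.16 (SE 0.14, 95% interval -0.50 to 0.18, limma adjusted p = 0.999).

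Rgs5, a regulator of G protein signalling that marks brain pericytes, read -6.94, -7.27 and -6.55 with P61S/R100E, -6.90, -6.08 and -6.66 with P61S, and -7.10 and -6.76 with wild type. P61S replicate 2 held the highest value and the groups overlapped. Its change was -0.37 for P61S/R100E minus P61S (SE 0.26, 95% interval -0.99 to 0.25, unadjusted p = 0.198, limma adjusted p = 0.999). With slide column as a covariate, whose slope rests on replicate 2 of each mutant, that change was -1.19 (limma adjusted p = 0.839). Cspg4 (NG2), a proteoglycan of pericytes and of glial precursors, was read by 10 spots per array. It stood at -0.81, -0.75 and -0.91 with P61S/R100E, -0.95, -0.59 and -0.99 with P61S, and -0.73 and -0.82 with wild type, with a change of 0.02 for P61S/R100E minus P61S (SE 0.13, 95% interval -0.28 to 0.32, unadjusted p = 0.882, limma adjusted p = 0.999). The groups overlapped, and that interval excludes a 1.5-fold difference. Mcam (CD146), an adhesion protein of mural and endothelial cells and also of Schwann cells, was the most evenly read listed gene, with 3.35 to 3.58 over the 8 arrays. Its 95% intervals lay within -0.22 and 0.29 in the 3 comparisons.

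Of the contractile and filament genes of mural cells, Des and Myh11 were well above background on all 8 arrays. Des (desmin), the intermediate filament of muscle and pericytes, read -4.28, -4.37 and -3.89 with P61S/R100E, -4.31, -4.15 and -4.37 with P61S, and -4.36 and -3.82 with wild type. The groups overlapped, and the change was 0.10 for P61S/R100E minus P61S (SE 0.18, 95% interval -0.34 to 0.53, unadjusted p = 0.619, limma adjusted p = 0.999). Myh11, the smooth muscle myosin heavy chain, read -5.13, -4.92 and -5.34 with P61S/R100E, -5.04, -4.88 and -4.95 with P61S, and -5.15 and -5.35 with wild type on its brighter probe. All 3 P61S arrays lay above both wild type arrays, and the change of 0.29 for P61S minus wild type had the smallest p of the listed genes there (SE 0.14, 95% interval -0.04 to 0.63, unadjusted p = 0.077, limma adjusted p = 0.999). The dimmer Myh11 probe gave a change of 0.08 for P61S minus wild type (SE 0.30), and for P61S/R100E minus wild type the probes differed in sign, with 0.12 on the brighter and -0.37 on the dimmer.

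Cnn1 (calponin), an actin-binding protein of smooth muscle, was well above background on 0 of 3 P61S/R100E arrays, 2 of 3 P61S arrays and both wild type arrays. It read -8.04, -6.65 and -8.36 with P61S/R100E, -7.50, -6.61 and -8.01 with P61S, and -8.18 and -7.03 with wild type. The groups overlapped, and with no P61S/R100E array well above background its level there is only a bound. The fitted change was -0.31 for P61S/R100E minus P61S (95% interval -1.66 to 1.03, limma adjusted p = 0.999) and -0.08 for P61S/R100E minus wild type (95% interval -1.58 to 1.43, limma adjusted p = 0.979). No direction is given for Cnn1, since the change against P61S was 0.07 without P61S replicate 2, and that against wild type was 0.50 without wild type replicate 2. Notch3, the receptor that keeps arterial smooth muscle differentiated, ranged from -4.56 to -3.95 over the 8 arrays. Abcc9, a subunit of the ATP-sensitive potassium channel of pericytes, ranged from -5.47 to -3.81. The 3 P61S arrays of Abcc9, at -4.46, -3.96 and -4.39, met the wild type arrays, at -4.46 and -4.58, with no overlap before rounding. In all, Plvap, Abcc9 and Myh11 lay above wild type without overlap in P61S, 3 of 25 genes, beside 8.4% of all tested genes.

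**Figure D2:**
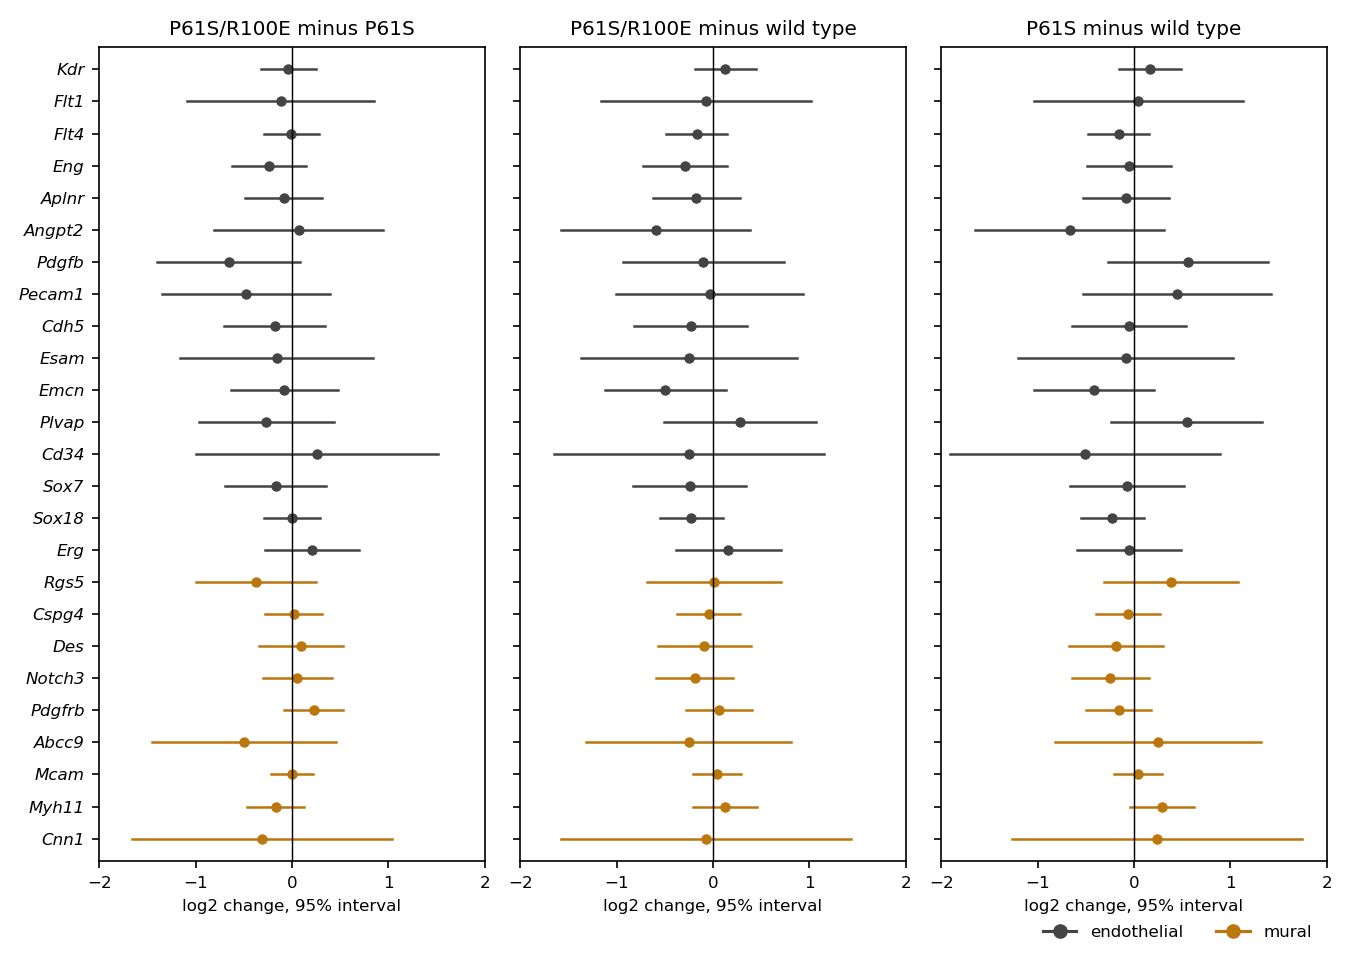
Fitted log2 change of each tested gene with its 95% interval, for P61S/R100E minus P61S, P61S/R100E minus wild type and P61S minus wild type; points are fitted changes and lines are limma intervals, with endothelial genes in grey and mural genes in orange. Every interval crosses 0, and those of the dim gene Cnn1 reach beyond 1 in both directions in all 3 comparisons.

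By role, the median change for P61S/R100E minus P61S was -0.09 over 5 receptors, -0.17 over 6 surface and junction genes and -0.29 over both ligands. It was -0.0008 over 3 transcription factors and -0.001 over 9 mural genes, of which 4 lay above 0 and 5 below. In the same comparison the 16 endothelial genes had a median of -0.10, with 13 below 0, beside 6503 of all 12148 tested genes. For P61S/R100E minus wild type the endothelial median was -0.20, again with 13 of 16 below 0, beside 6936 of 12148, and the median over 9 mural genes was -0.05. Angpt2 and Cd34, counted below 0 here, entered the test only through wild type, where their means were highest. Pecam1, counted below 0 against P61S, entered only through P61S, where its mean was highest. Such entry favours values below 0, so these genes are no support for a direction. No test was made over a list, and these counts describe the 8 arrays only. The 95% interval lay within 2-fold in both directions for 18 of 25 genes in P61S/R100E minus P61S, 16 in P61S/R100E minus wild type and 14 in P61S minus wild type, as the plot of changes with their intervals shows. For the other genes a 2-fold difference lies inside the interval in at least 1 direction. With slide column as a covariate the median over the 25 genes was -0.31 for P61S/R100E minus P61S, 0.10 for P61S/R100E minus wild type and 0.40 for P61S minus wild type, and 0 genes passed. The shift follows the deviations of replicate 2 of each mutant, and the values against wild type are extrapolated from them.

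The highest values of the listed genes fell mostly on 2 arrays of different groups. P61S replicate 2 held the highest of the 8 values for 12 of 25 genes, or 48%, beside 12.9% of all tested genes. Wild type replicate 2 held it for 8 genes, or 32%, beside 33.3% of all tested genes. The median deviation of the 25 genes from their own mean was 0.27 on P61S replicate 2 and 0.18 on wild type replicate 2, and between -0.11 and 0.00 on the other 6 arrays. Over the 16 endothelial genes it was 0.35 on P61S replicate 2, the highest array for 8 of them, and 0.29 on wild type replicate 2, the highest for 6. Over the 9 mural genes it was 0.21 on P61S replicate 2, the highest for 4, while wild type replicate 2 was the highest for 2. Probes of the listed genes are dimmer than most, and dim genes as a whole also read high on both arrays. Over 14 listed genes with a mean level below -5, the median deviation on P61S replicate 2 was 0.61, beside 0.21 over all 2366 tested genes that dim. On wild type replicate 2 it was 0.11 over the listed genes, beside 0.31. Over the 11 brighter listed genes it was 0.13 on P61S replicate 2 and 0.27 on wild type replicate 2. Over all tested genes at -5 or higher it was 0.009 and 0.029 on the same arrays. By level, P61S replicate 2 held the highest value for 10 of 14 dim listed genes, beside 28.4% of all tested genes below -5. For the brighter listed genes it was 2 of 11, beside 9.16% of all tested genes at -5 or higher. Wild type replicate 2 held the highest value for 2 of 14 dim listed genes, beside 40.3%, and for 6 of 11 brighter ones, beside 31.6%. Without P61S replicate 2 the median change of the listed genes for P61S/R100E minus P61S was 0.07, in place of -0.09, and for P61S minus wild type it was -0.19, in place of -0.05. After quantile normalization P61S replicate 2 held the highest value for 7 of 25 genes, beside 8.22% of all tested genes. P61S/R100E replicate 2 also held it for 7 of 25, beside 17.7%.

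**Figure D3:**
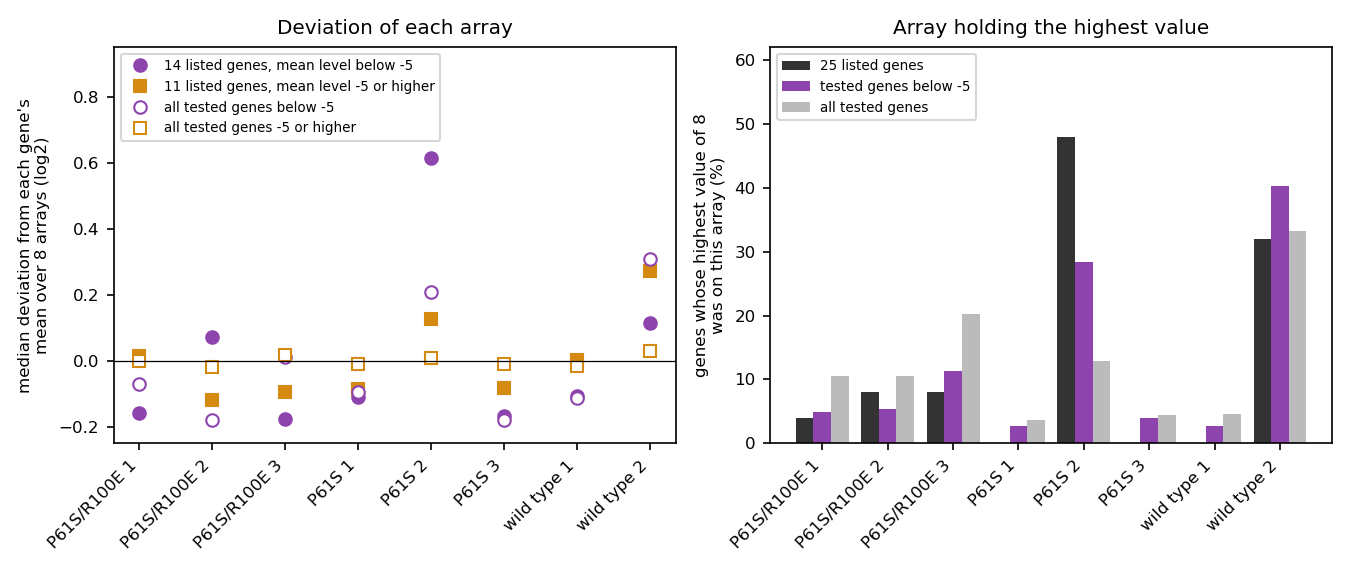
Left, median log2 deviation of each gene from its own mean over the 8 arrays, by array, for the 14 tested listed genes with a mean level below -5 (filled circles), the 11 at -5 or higher (filled squares) and all tested genes in the same classes (open symbols); right, the percentage of genes whose highest value of 8 lay on each array. For the 14 dim listed genes P61S replicate 2 stands at 0.61 on the left, and on the right it holds the highest value for 48% of the 25 listed genes.

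The plot of deviations by array places P61S replicate 2 furthest above 0 for the dim listed genes. The part of background signal in this pattern was not tested. That array also had the highest share of spots well above background, 88.8%, beside 78.7% on P61S replicate 3. The median residual SD was 0.43 over the 14 dim listed genes and 0.16 over the 11 brighter ones, beside 0.33 over all tested genes below -5 and 0.15 over all tested genes.

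Other genes of vessel signalling were followed on the same arrays. Of 54 listed genes of the VEGF, angiopoietin, Notch, TGF-beta, PDGF, sphingosine and endothelin pathways, 48 were tested, and 0 passed an adjusted p of 0.05 in limma in any comparison. At an unadjusted p under 0.05, 5 of 48 passed for P61S/R100E against P61S, 3 higher and 2 lower, beside 4.68% of all tested genes. In each comparison with wild type 1 of 48 did, beside 5.19% for P61S/R100E and 1.72% for P61S. Angpt1, the angiopoietin that mural and mesenchymal cells release to activate Tek, read -4.16, -4.33 and -4.19 with P61S/R100E, -4.56, -4.43 and -4.67 with P61S, and -4.30 and -4.17 with wild type. P61S arrays lay below all others, and the change was 0.33 for P61S/R100E minus P61S (SE 0.10, 95% interval 0.10 to 0.56, unadjusted p = 0.0114, limma adjusted p = 0.999) and -0.32 for P61S minus wild type (unadjusted p = 0.0207). Angptl4, a secreted inhibitor of lipoprotein lipase, read 2.81, 2.90 and 2.99 with P61S/R100E, 3.16, 3.26 and 3.16 with P61S, and 3.04 and 3.28 with wild type. Its P61S/R100E arrays lay below all others. The change was -0.29 for P61S/R100E minus P61S (SE 0.10, limma adjusted p = 0.999) and -0.26 for P61S/R100E minus wild type (SE 0.11, limma adjusted p = 0.746). Smad6, an inhibitor of BMP signalling, had a change of 0.27 for P61S/R100E minus P61S, and Notch4, the endothelial Notch receptor, had -0.23, with limma adjusted p = 0.999 for each. In the comparisons with wild type, the other pathway genes with the smallest p were the VEGF relatives Pgf (0.28) and Vegfd (-0.50) and the sphingosine receptor S1pr1 (0.26) for P61S/R100E, and Sphk1 (0.32), Angpt4 (0.42) and Vegfd (-0.49) for P61S, all with an unadjusted p above 0.05.

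Among 25 tested further endothelial markers, 3 had an unadjusted p under 0.05 for P61S/R100E against P61S, beside 4.68% of all tested genes, and 4 for P61S/R100E against wild type, beside 5.19%. For P61S against wild type there were 0, beside 1.72%, and 0 passed after adjustment in any comparison. Thbd (thrombomodulin), the thrombin receptor that starts the anticoagulant protein C pathway, read 0.93, 0.95 and 0.92 with P61S/R100E, 0.40, 0.54 and 0.44 with P61S, and 0.61 and 0.47 with wild type. All P61S/R100E arrays lay above all others, with a change of 0.48 over P61S (SE 0.08, 95% interval 0.29 to 0.66, unadjusted p = 5.8e-04, limma adjusted p = 0.336) and 0.40 over wild type (SE 0.09, limma adjusted p = 0.722). Thbd is also carried by monocytes and macrophages. Procr, the protein C receptor of the same pathway, read -4.16, -4.51 and -4.47 with P61S/R100E, -4.01, -4.13 and -4.01 with P61S, and -4.04 and -3.86 with wild type. Its P61S/R100E arrays lay below all others, with a change of -0.33 for P61S/R100E minus P61S (limma adjusted p = 0.999) and -0.43 for P61S/R100E minus wild type (limma adjusted p = 0.746).

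Lyve1, the hyaluronan receptor of lymphatic endothelium and of some macrophages, read -7.60, -7.18 and -7.32 with P61S/R100E, -6.70, -6.49 and -6.79 with P61S, and -6.49 and -6.84 with wild type. The P61S/R100E arrays lay below all others, with a change of -0.70 against P61S (SE 0.15, 95% interval -1.07 to -0.34, unadjusted p = 0.0027, limma adjusted p = 0.654) and -0.70 against wild type (SE 0.17, limma adjusted p = 0.746). Lyve1 was well above background on all 8 arrays, but its P61S/R100E levels were about as low as those of Flt1. Prox1, the transcription factor that defines lymphatic endothelium, was not well above background on every array of any group. Lyl1, a transcription factor of blood and endothelial cells, had a change of 0.41 for P61S/R100E minus wild type (unadjusted p = 0.0197, limma adjusted p = 0.746). With larger p, Slco1a4 had a change of 0.45 for P61S/R100E minus P61S, and for P61S minus wild type Rasip1 had 0.14, Adgrl4 -0.19 and Gata2 -0.37. Slco1a4 was well above background on only 5 of 8 arrays.

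Among 21 tested further mural markers, 2 had an unadjusted p under 0.05 for P61S/R100E against P61S, beside 4.68% of all tested genes. There were 3 for P61S/R100E against wild type, beside 5.19%, and 1 for P61S against wild type, beside 1.72%, and 0 passed after adjustment. Kcnj8, the pore subunit that joins Abcc9 in the potassium channel of pericytes, read -3.05, -2.90 and -3.03 with P61S/R100E, -2.75, -2.60 and -2.70 with P61S, and -2.72 and -2.64 with wild type. Its P61S/R100E arrays lay below all others, and the change was -0.31 against P61S (SE 0.08, unadjusted p = 0.0080, limma adjusted p = 0.963) and -0.31 against wild type (SE 0.09, limma adjusted p = 0.746). Casq2, a calcium store protein of muscle, had a change of 0.61 for P61S/R100E minus P61S (unadjusted p = 0.0486, limma adjusted p = 0.999). Tbx18, a transcription factor of mural precursors, had a change of -0.29 for P61S minus wild type (unadjusted p = 0.031, limma adjusted p = 0.999). For P61S/R100E minus wild type, Art3 had 0.26 and Ano1, a chloride channel, 0.42, with limma adjusted p = 0.746 for each. Changes of Tpm1, Itga7 and Smtn, which encode muscle tropomyosin, a laminin receptor and an actin-binding protein, had unadjusted p above 0.05 in every comparison in which they were among the smallest.

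**Figure D4:**
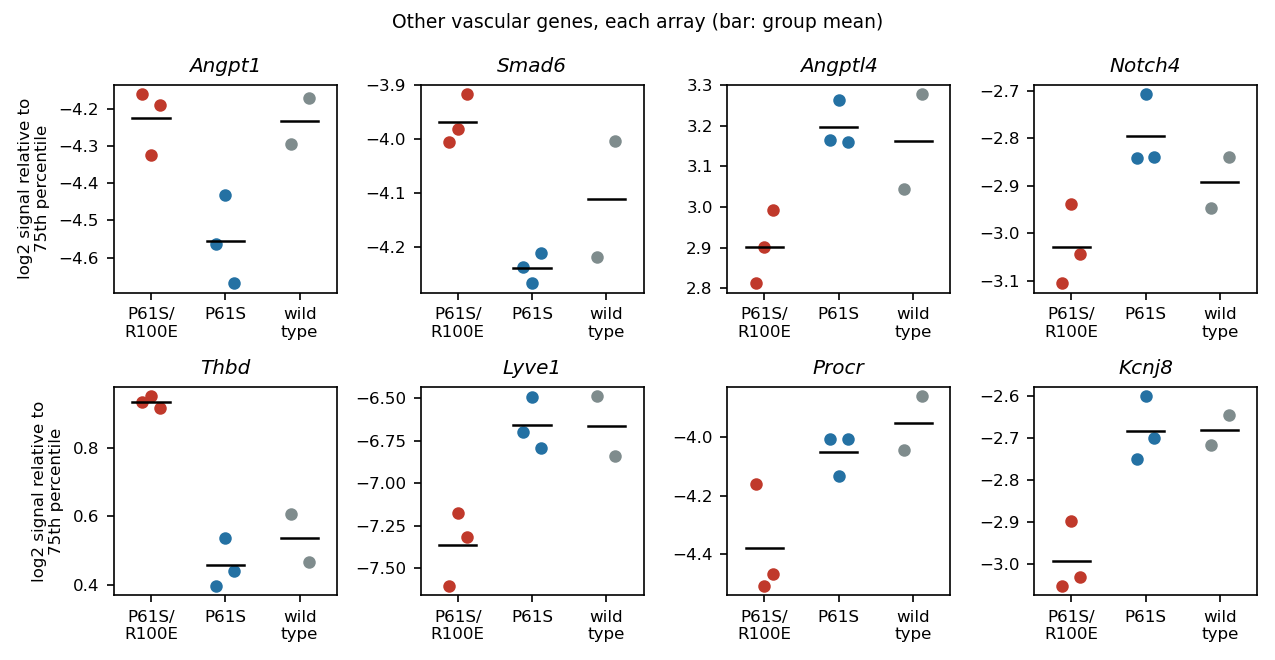
Level of 8 vascular genes outside the list of 33, with the log2 level (0 is the 75th percentile of the array) on the y axis, with P61S/R100E, P61S and wild type from left to right; points are arrays and bars are group means. Thbd lies above, and Angptl4, Lyve1, Procr and Kcnj8 lie below, P61S and wild type in all 3 P61S/R100E arrays. No change passed the adjusted test.

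The plot of other vascular genes shows 8 of those with an unadjusted p under 0.05 for P61S/R100E against P61S. These genes were picked by their p-values, so the absence of overlap between their groups is no separate support. Markers of the other cells in the cultures were read on the same arrays. Linear levels, in units of each array's 75th percentile, were summed over a list and followed over the groups. The sum over 5 endothelial receptors was 0.341 to 0.391 with P61S/R100E, 0.366 to 0.433 with P61S and 0.360 to 0.407 with wild type. For 9 mural genes it was 12.5 to 14.2 with P61S/R100E, 12.8 to 13.9 with P61S and 12.6 to 13.6 with wild type. That sum is mostly Mcam, at log2 levels of 3.35 to 3.58, followed by Pdgfrb at 0.22 to 0.67. The remaining mural genes lay below the 75th percentile. As Schwann cells and fibroblasts also carry these genes, the sum is no measure of mural cells alone. Over 21 further mural markers the sum was 19.0 to 19.8 with P61S/R100E, 18.5 to 18.8 with P61S and 18.6 to 18.8 with wild type. P61S/R100E thus lay above the other groups without overlap there, which was not tested. Sums over 25 further endothelial markers overlapped between the groups. Over 15 fibroblast genes the sum was 231 to 273 with P61S/R100E, 219 to 239 with P61S and 238 to 249 with wild type. Over 15 macrophage genes it was 13.9 to 16.8 with P61S/R100E, 13.9 to 15.4 with P61S and 13.3 to 13.5 with wild type. None of 15 fibroblast and 15 macrophage genes passed an adjusted p of 0.05 in limma. Before adjustment a p under 0.05 was reached by 1 fibroblast and 0 macrophage genes for P61S/R100E against P61S, beside 4.68% of all tested genes, and by 0 and 3 for P61S/R100E against wild type, beside 5.19%. For P61S against wild type it was 0 and 1, beside 1.72%. The macrophage markers Cd163 and Mrc1 were not well above background on every array of any group. The part of fibroblasts and macrophages in the values of Pdgfrb, Thbd and Lyve1 was not tested.

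The stretch of 250 bases before the start of transcription was read from RefSeq (assembly GRCr8) for 19 of the 33 genes. Of these, the sequences of Plvap, an endothelial gene, and Rgs5, a pericyte gene, are given as examples. Both genes read highest on P61S replicate 2, and both windows lie outside the gene itself. Capitals mark matches on either strand to 2 short ETS words, CAGGAAG and CGGAAG, whose factors include Erg, and to the GC box GGGCGG. Both run 5' to 3' on the strand of the gene, and lie at chr16:18231280-18231529 on the minus strand for Plvap and chr13:84380827-84381076 on the plus strand for Rgs5.
Plvap: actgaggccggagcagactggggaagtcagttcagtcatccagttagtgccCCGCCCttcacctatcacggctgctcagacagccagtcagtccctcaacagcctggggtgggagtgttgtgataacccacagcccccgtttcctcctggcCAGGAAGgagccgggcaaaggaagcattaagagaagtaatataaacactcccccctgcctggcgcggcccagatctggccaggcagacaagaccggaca
Rgs5: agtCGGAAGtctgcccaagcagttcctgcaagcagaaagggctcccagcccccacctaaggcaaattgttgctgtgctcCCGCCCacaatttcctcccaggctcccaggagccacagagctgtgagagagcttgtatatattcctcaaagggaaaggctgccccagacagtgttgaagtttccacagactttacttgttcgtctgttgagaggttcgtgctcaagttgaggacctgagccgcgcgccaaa
In Plvap the GC box began 199 bases and CAGGAAG 99 bases before the start, and in Rgs5 CGGAAG began 247 bases and the GC box 171 bases before it. Pdgfb, Cspg4 and Cnn1 also read highest on P61S replicate 2 and had windows outside the gene, and these windows held neither ETS word. CAGGAAG stood in 5 of 19 listed genes (26.3%), namely Egfl7, Emcn, Erg, Plvap and Robo4, beside 10.2% of all 33469 promoters of the same length. CGGAAG stood in 1 of 19 (5.26%), beside 13.9%, and the GC box in 14 of 19 (73.7%), beside 30.5%. The 19 genes had 20 windows, and a gene was counted if any of its windows held the word. The shares over all promoters count each window, so the units differ. Egfl7 held CAGGAAG and the GC box in different windows. The serum response factor motif called the CArG box and the forkhead word TGTTTAC stood in 0 of 19, beside 1.5% and 3.21% of all promoters, which says only that these letters are not in these windows. A match is a description of the sequence and not a binding site, and the arrays hold no measurement of binding.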

How the data were processed

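Polyadenylated RNA of an integrity number of at least 8.0 was labelled with Cy3 from 200 ng and hybridised to 8 arrays of 1 colour, per the labels' protocols. The deposited scanner intensities are processed signals that Feature Extraction 10.7.3.1, under protocol GE1_107_Sep09, had corrected for background, per the file headers. The deposited log2 matrix correlated at 0.999 or above with log2 of those signals and had no normalization between arrays, as a check against the scanner files found.

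Here, log2 of the processed signal minus each array's log2 75th percentile was used. Spots of a probe were averaged, without those flagged as feature outliers where others remained. A probe entered the test if all arrays of 1 or more groups read it well above background, which gave 23585 probes and 12148 genes, and the brightest tested probe stood for a gene. Symbols came from RefSeq accessions, which matched 17998 of 30367 probes. The array design names genome build rn4, so no probe coordinates are given, and promoter coordinates are those of GRCr8. One limma fit (limma 3.58.1, R 4.3.3) of 3 group means had 5 residual and 1.93 prior degrees of freedom, with Benjamini-Hochberg adjustment over all tested probes. Its code was tested on simulated data. Summaries used pandas 2.3.3 and numpy 2.4.6 under Python 3.11.15, and plots used matplotlib 3.10.9. The number of arrays limits the precision.

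The genes and all lists were chosen with earlier results of these data known. Genes chosen to be named with values on every array were a fixed set of 13 (Pecam1, Cdh5, Kdr, Flt1, Tek, Eng, Vwf, Rgs5, Pdgfrb, Cspg4, Des, Myh11 and Cnn1) and, in each comparison, the 3 listed genes with the smallest p in each direction. Of the fixed set, Vwf had no matched probe and Tek was not tested, so no values are given for them. Of the other vascular lists, the 2 genes with the smallest p in each direction and comparison are named. Replicate numbers were not taken to pair the arrays. Deviations of same-numbered arrays correlated at -0.021 to 0.051 for P61S/R100E and P61S, at -0.198 and -0.158 for P61S/R100E and wild type, and at 0.167 and 0.104 for P61S and wild type, and pairing required every pair to be over 0.1. Alternatives covered background correction, normalization, centring, the filter, slide row and column, a replicate block, the variance model, probe averaging and each array left out. The normexp alternative was run on median spot signals and median local backgrounds.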

Additional observations from a re-analysis of the deposited data

How the results depend on the processing

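The count of endothelial and mural genes past the threshold stayed at 0 in all 3 comparisons under 14 alternatives, among them a threshold of 0.10 for the adjusted p, and in 8 fits that each left out 1 array. The smallest limma adjusted p of the 17 named genes was 0.653 or higher in each of these settings except the fit without wild type replicate 1, where it was 0.086, a fit in which the lone wild type array is assumed to vary like the other groups. In that fit 1244 probes of the whole series passed for P61S/R100E against wild type and 250 for P61S against wild type, with 0 listed genes among them, while the other settings gave 0 to 6 probes per comparison. It also called 2 of the other vascular genes for P61S/R100E against wild type, Itga7 (log2 change -0.82, adjusted p = 0.034) and Thbs2, a thrombospondin (log2 change -0.56, adjusted p = 0.044), Thbs2 being named after its value was seen. With slide column as a covariate the median log2 change of the listed genes was -0.31 for P61S/R100E minus P61S, 0.10 for P61S/R100E minus wild type and 0.40 for P61S minus wild type, in place of -0.09, -0.10 and -0.05. The slope of that covariate comes only from replicate 2 of each mutant. Both wild type arrays lay in column 4, so the values against wild type are extrapolated. Of 1044 values of the named genes under the alternatives, 61 moved by more than the spread between arrays and 0 passed the threshold. Leaving out 1 array at a time gave medians of -0.18 to 0.07, -0.24 to -0.01 and -0.19 to 0.08 for these comparisons in the same order. The median for P61S/R100E minus P61S turned to 0.07 without P61S replicate 2. For P61S minus wild type it was 0.01 when P61S replicate 1 was left out, 0.01 when replicate 3 was, and 0.08 with wild type replicate 2 removed. Leaving out P61S replicate 2 and wild type replicate 2 together, an alternative chosen after seeing the data, gave 0.07, -0.01 and -0.04. With a replicate block the medians were -0.09, -0.05 and 0.02 and the calls stayed at 0. Replicate numbers were not taken to pair the arrays, which the correlations of deviations cannot exclude. Signal over background limits what can be said of 7 listed genes that were not well above background on every array, and of 5 that were not tested.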
